A study of Homo sapiens with 6 samples.

Results

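The genes described here are the liver X receptors (LXR), the genes these receptors switch on to move cholesterol out of cells, and the pair of proteins that export cholesterol from lysosomes. The set of 10 was fixed by gene symbol (NR1H2, NR1H3, ABCA1, ABCG1, APOE, LPCAT3, SMPDL3A, PLTP, NPC1 and NPC2). A gene was represented by the array probe set annotated to its symbol alone. That left 9 of the 10 genes, each with 1 such probe set, among 18417 symbols measured. NR1H2, which encodes the second LXR, had no such probe set and was not analysed here.

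The samples were neural stem cells, self-renewing precursors of neurons and glia. They had been derived from SA-01, an established line of human embryonic stem cells, and were at passage 14. The cells were exposed to X5050 at 100 µM, or to the solvent DMSO at 0.1%, beginning 5 h after plating and ending 24 h later. Each treatment had 3 arrays, whose titles number them as biological replicates 1, 2 and 3. The numbers are called cultures here, and arrays numbered alike were compared as pairs. The labels do not state that each culture received both treatments. The series title names X5050 as an inhibitor of REST, the repressor of neuronal genes, and every sample came from a single cell line.

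LXRs are nuclear receptors that bind oxysterols, the oxidised forms of cholesterol that accumulate when a cell holds more sterol than it needs. With a retinoid X receptor (RXR) partner they then raise transcription of transporters and lipoprotein genes that carry the surplus away. The SREBP2 transcription factor works on the other side of this balance, since it raises sterol synthesis and uptake when sterol is scarce. In the brain, glial cells pass cholesterol to neurons on particles carrying APOE. The question put to the data was therefore whether the export genes differed between X5050 and DMSO, which would be one readout of sterol surplus.

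ABCA1 was the member with the smallest p. The sequence just before its annotated start is shown because the LXR response element known from studies of human ABCA1 lies there. The 250 bases come from RefSeq (GRCh38.p14, chr9:104928156-104928405, minus strand). STARD4 is shown for contrast, because it was the sole gene among the wider sterol handling lists described below that passed the test (GRCh38.p14, chr5:111512536-111512785, minus strand). Both read 5′ to 3′ on the gene's strand and end at the base before the start. Capitals mark matches to an LXR element core (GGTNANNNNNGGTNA), a sterol regulatory element (TCACNCCAC) or an E-box (CACGTG), searched on both strands.
ABCA1: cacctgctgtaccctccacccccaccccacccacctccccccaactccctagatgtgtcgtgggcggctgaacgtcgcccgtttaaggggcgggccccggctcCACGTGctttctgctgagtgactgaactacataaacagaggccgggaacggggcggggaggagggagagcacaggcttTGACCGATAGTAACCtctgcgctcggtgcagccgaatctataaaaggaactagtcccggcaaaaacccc
STARD4: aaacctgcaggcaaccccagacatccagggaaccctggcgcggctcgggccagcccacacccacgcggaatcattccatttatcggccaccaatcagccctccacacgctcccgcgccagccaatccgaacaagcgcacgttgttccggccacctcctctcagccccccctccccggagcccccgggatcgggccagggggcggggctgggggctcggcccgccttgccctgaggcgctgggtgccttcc

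The ABCA1 window held 1 match to the LXR element core, on the opposite strand and beginning 69 bases before the start. It also held 1 E-box, beginning 147 bases before the start and not overlapping that match. The LXR element core occurred in 0.532% of 34788 distinct windows of this length and the E-box in 6.31%. Of the 8 members with a window in the RefSeq table, ABCA1 alone held the LXR element core, and 0 held the sterol regulatory element, which occurred in 0.882% of all windows. No match to any of the 3 was present in the STARD4 window. A match describes letters only, and the absence of one says nothing of the factor. The motifs were picked with the ABCA1 element already known.

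Of the 9 measured members, 0 were called higher and 0 were called lower in X5050 at an adjusted p under 0.05 (limma with culture as a block). Over all 19460 probe sets tested, 0.19% were called higher and 0.308% lower, so a count of 0 among 9 genes does not set these genes apart from the background. At an unadjusted p under 0.05, 2 members were higher and 0 lower, against 7.06% and 7.48% of all probe sets. The mean log2 change (X5050 minus DMSO) was above 0 for 5 members, against 52.7% of all probe sets, and below 0 for 4. It ranged from -0.14 to 0.31. The median over the members was 0.080, beside 0.0092 over all probe sets.

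**Figure D1:**
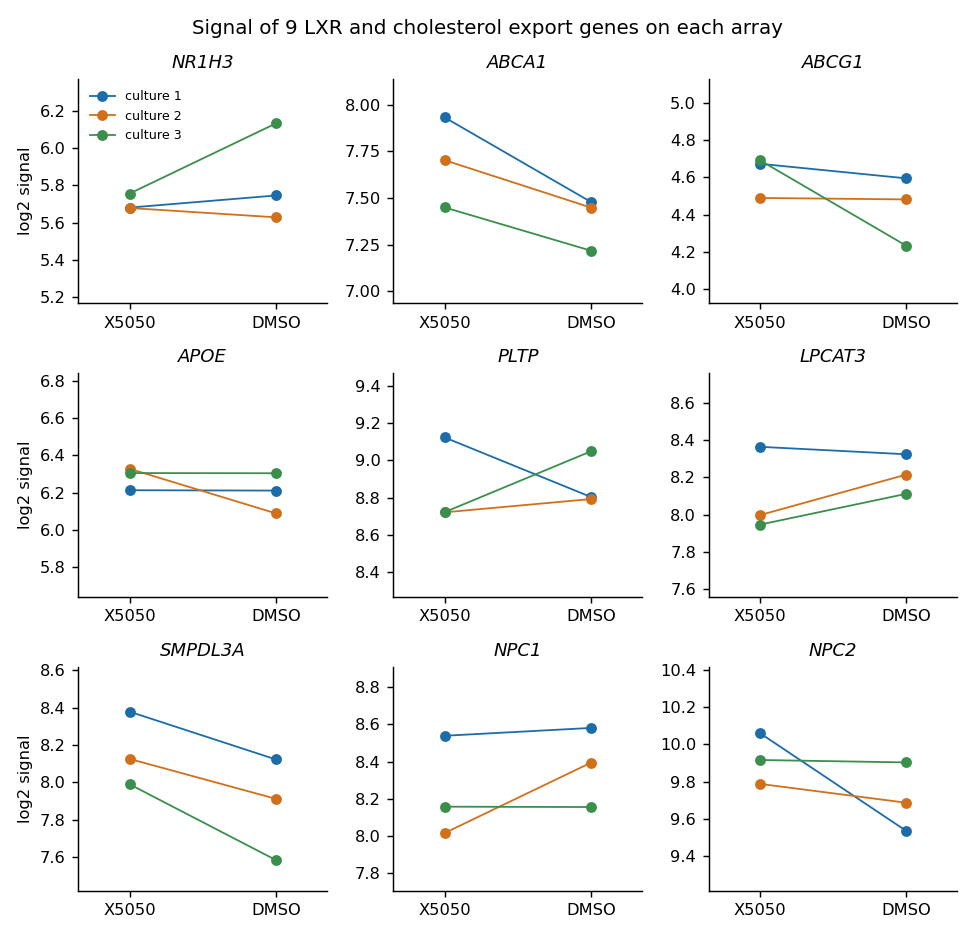
Log2 signal (y axis, each panel spanning the same number of log2 units) of the 9 measured genes on the X5050 array (left) and the DMSO array (right) of each culture, with a line joining the 2 arrays of a culture. The lines of ABCA1 and SMPDL3A lie higher at X5050 in all 3 cultures, while those of PLTP cross; the X5050 and DMSO points overlap in every panel.

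The receptor NR1H3 encodes LXR alpha, which many tissues use to sense sterols. Its log2 signal was 5.68, 5.68 and 5.76 with X5050 in cultures 1, 2 and 3, against 5.75, 5.63 and 6.13 with DMSO. The DMSO array of culture 3 was the high one and the other 5 arrays lay close together, so the groups overlapped. These values lay near the array medians (5.68 to 5.75), so a change of NR1H3 may have been compressed. The log2 change was -0.13 (95% interval -0.37 to 0.11, n = 3 cultures, limma adjusted p = 0.662).

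ABCA1, which hands cholesterol and phospholipid to lipid-poor apolipoproteins at the cell surface, is among the most widely used markers of LXR activity. Its signal was 7.93, 7.70 and 7.45 with X5050, against 7.48, 7.45 and 7.22 with DMSO. The X5050 array was higher in each culture, by 0.45, 0.25 and 0.23, but the lowest X5050 value, in culture 3, lay just under the highest DMSO value, in culture 1. Both treatments ran in the same order over the cultures, with culture 1 highest and culture 3 lowest. The mean change was 0.31 on the log2 scale (SE 0.093, 95% interval 0.10 to 0.52), a 1.24-fold difference. It did not pass (limma unadjusted p = 0.00921, adjusted p = 0.171). ABCA1 was the 1 member whose mean change exceeded the range of its DMSO values over the cultures (0.26). The share of all probe sets for which this held was not computed, so it does not set ABCA1 apart from the background.

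ABCG1, which moves cholesterol towards lipoprotein particles that already carry lipid, gave a dim signal below the median of every array. It stood at 4.67, 4.49 and 4.69 with X5050, against 4.59, 4.48 and 4.23 with DMSO. Most of the difference came from culture 3 (0.46, against 0.078 in culture 1 and 0.0081 in culture 2), where the DMSO array was the lowest of the 6. The change was 0.18 (95% interval -0.071 to 0.43, limma adjusted p = 0.523). Array summaries compress changes of dim probe sets, so this interval may understate the range for ABCG1.

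Lipoprotein and membrane lipid genes showed no common direction. APOE, the main apolipoprotein made in the brain, was at 6.21, 6.33 and 6.30 with X5050 and at 6.21, 6.09 and 6.30 with DMSO. That is not far above the array medians, so the same limit may apply to APOE as to NR1H3. Its treatments differed by 0.0017 and 0.00066 in cultures 1 and 3 and by 0.24 in culture 2, a mean of 0.080 (95% interval -0.14 to 0.30, limma adjusted p = 0.782). PLTP, which transfers phospholipids between lipoproteins, was at 9.12, 8.72 and 8.72 with X5050, against 8.80, 8.79 and 9.05 with DMSO. The cultures disagreed on PLTP, with differences of 0.32, -0.071 and -0.33 that left a mean of -0.026 (95% interval -0.31 to 0.26, limma adjusted p = 0.957). The mean was 0.12 without culture 3.

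LPCAT3 encodes an enzyme that puts polyunsaturated fatty acids into membrane phospholipids. It had signals of 8.36, 7.997 and 7.95 with X5050, against 8.32, 8.21 and 8.11 with DMSO. The X5050 arrays spread more widely (SD 0.23, against 0.11 with DMSO, n = 3 each), and only culture 1 was higher with X5050. The mean change was -0.11 (95% interval -0.33 to 0.10, limma adjusted p = 0.666). SMPDL3A, a secreted phosphodiesterase known as an LXR target from human macrophages, was at 8.38, 8.12 and 7.99 with X5050, against 8.12, 7.91 and 7.58 with DMSO. Like ABCA1 it was higher with X5050 in every culture, by 0.26, 0.21 and 0.41, and ran in the same order of cultures in both treatments. The groups overlapped because cultures differed by more (a range of 0.54 over the DMSO arrays) than treatments did. SMPDL3A changed by 0.29 in the mean, a 1.22-fold difference that did not pass (SE 0.090, 95% interval 0.084 to 0.50, limma unadjusted p = 0.0116, adjusted p = 0.186).

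The lysosomal pair NPC1 and NPC2 work in sequence, since the soluble NPC2 collects cholesterol freed inside the lysosome and passes it to NPC1 in the membrane. NPC1 was at 8.54, 8.02 and 8.16 with X5050, against 8.58, 8.39 and 8.16 with DMSO. Only culture 2 differed by more than a trace (-0.38, against -0.042 and 0.0019 in cultures 1 and 3), and the mean was -0.14 (95% interval -0.38 to 0.10, limma adjusted p = 0.625). NPC2 was at 10.06, 9.79 and 9.92 with X5050, against 9.54, 9.69 and 9.90 with DMSO. Here it was culture 1 that differed (0.53, against 0.10 and 0.012 in cultures 2 and 3), and the mean was 0.21 (95% interval -0.053 to 0.48, limma adjusted p = 0.463). The means of the pair thus stood on opposite sides of 0, neither past the threshold.

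**Figure D2:**
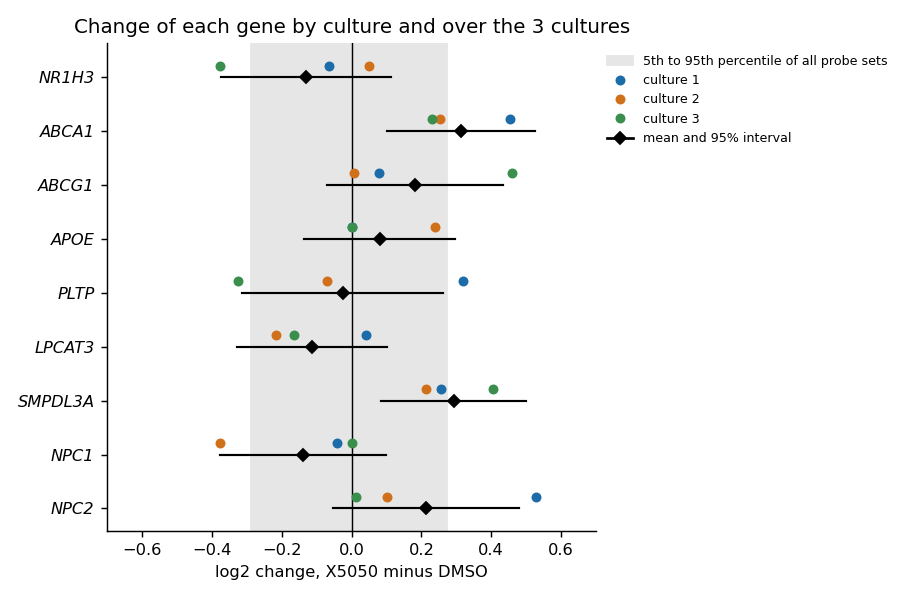
Log2 change, X5050 minus DMSO (x axis), of each of the 9 genes: coloured points are the 3 cultures, black diamonds the mean, black lines its 95% interval in the paired limma fit, and the grey band holds the 5th to 95th percentile of all probe sets (-0.29 to 0.27). The means of ABCA1 and SMPDL3A lie above the band and the other 7 inside it.

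The intervals give the range of change in array signal that the paired fit allows for each gene. They do not bound the change in RNA, since dim probe sets can be compressed. They also rest on the block. Without it the SE was 0.14 for ABCA1 and 0.16 for SMPDL3A, against 0.093 and 0.090 with it. It was larger for the other members too, except APOE (0.090, against 0.094). Over the 9 genes the highest upper bound was 0.52 (1.44-fold, ABCA1) and the lowest lower bound was -0.38 (1.30-fold lower, NPC1), gene by gene and without correction for several genes. In 7 of the 9 the interval held 0. Two-sided exact tests have little to add here, since the smallest p they can give is 0.25 with 3 pairs and 0.1 with 3 arrays against 3.

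Consistency over cultures was counted as well. X5050 was above DMSO in each culture for 5 members (ABCA1, ABCG1, APOE, SMPDL3A and NPC2), against 18% of all probe sets, but APOE, ABCG1 and NPC2 each had at least 1 culture with a difference near 0 (0.00066 for APOE in culture 3, 0.0081 for ABCG1 in culture 2 and 0.012 for NPC2 in culture 3). For 0 members was X5050 below DMSO in each culture, against 17.5% of all probe sets. The X5050 and DMSO values were separate for 0 members, against 14.9% of all probe sets. The members' median was 0.078, 0.050 and 0.0019 in cultures 1, 2 and 3.

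Genes of sterol synthesis, measured in the same cells, are the natural contrast, though the lists were drawn up with earlier results of these arrays known. Of 16 listed SREBP2 targets 11 were measured, and 9 of them fell and 0 rose at an adjusted p under 0.05 (limma with culture as a block), beside 0.308% and 0.19% of all probe sets. Without the block the adjusted p of these 9 was 0.172 to 0.299. Limma called 0 probe sets of any kind without the block or without culture 3, and this holds for every gene described as having fallen here. The 9 were DHCR7, NSDHL, HMGCS1, MSMO1, INSIG1, FDPS, CYP51A1, SQLE and LSS, while IDI1 and SC5D were lower without passing. All 11 had lower X5050 than DMSO values with no overlap. DHCR7, the last reductase of the pathway, stood at 7.34, 6.44 and 6.67 with X5050, against 8.92, 8.29 and 8.19 with DMSO. The median of the SREBP2 targets was -0.84, -1.05 and -0.73 in cultures 1, 2 and 3. The export genes' median lay above it by 0.92, 1.10 and 0.73 in these cultures. That gap is a description, with no test of its own.

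**Figure D3:**
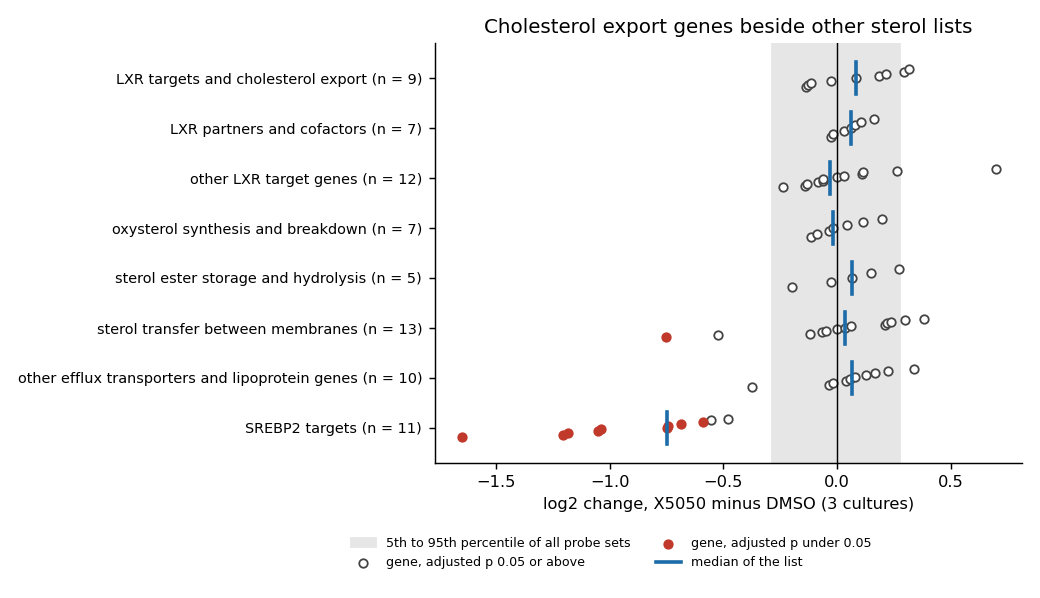
Log2 change, X5050 minus DMSO (x axis), of the measured genes of 8 sterol lists (rows): filled red points had an adjusted p under 0.05 in the paired limma fit, open points did not, blue bars are list medians and the grey band holds the 5th to 95th percentile of all probe sets. The export genes gather near 0 with a median of 0.080, STARD4 is the 1 filled point among the 6 lists below them, and the SREBP2 targets lie to the left with a median of -0.75.

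Around the members lie 62 further genes in 6 lists (LXR partners and cofactors, other LXR targets, oxysterol metabolism, sterol ester storage, sterol transfer between membranes, and other efflux or lipoprotein genes), of which 54 were measured. Of these 54, 1 fell and 0 rose at an adjusted p under 0.05, beside the 0.308% and 0.19% of all probe sets. The gene that fell was STARD4, a carrier of cholesterol between membranes and itself an SREBP2 target. It was at 8.06, 7.31 and 7.57 with X5050, against 8.69, 8.24 and 8.26 with DMSO, with every X5050 value below every DMSO value. The fall was 0.75 on the log2 scale (1.68-fold, SE 0.097, limma adjusted p = 0.0326). The adjusted p was 0.363 without the culture block and 0.163 without culture 3.

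Among 12 other LXR targets measured of 15, none passed, with 6 above 0 and 6 below. RNF145, a membrane ubiquitin ligase known as an LXR target from mouse liver, came closest. It was at 9.04, 8.75 and 9.04 with X5050, against 8.13, 8.38 and 8.24 with DMSO, so the groups did not overlap. The change was 0.70 (1.62-fold, SE 0.12, limma adjusted p = 0.0555), and it passed under 5 of 10 alternatives. Next by p were APOC1, a small apolipoprotein (-0.24, limma adjusted p = 0.276), and TTC39B, which in mice promotes turnover of LXR protein (0.26, limma adjusted p = 0.404). SREBF1, which drives fatty acid synthesis and is a classical LXR target, stood at 0.028 (named after its value was seen), and MYLIP, the LXR-induced ligase that degrades the LDL receptor, at 0.11 (also named after its value was seen). Most genes of this list were dim. ABCG4, ABCG5, ABCG8, APOC1, APOD, TTC39B, MLXIPL and CETP had both group means below the median of every array. SREBF1 lay near the array medians, at 5.73 to 6.02. Changes of these genes may have been compressed, as for ABCG1.

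The sterol transfer genes were all measured (13 of 13). After STARD4, TMEM97, an endoplasmic reticulum protein that binds NPC1, was at 10.64, 10.65 and 10.81 with X5050, against 11.20, 11.21 and 11.27 with DMSO. These values were separate and differed by a similar amount in each culture, but the change of -0.52 (SE 0.088) just missed the threshold (limma adjusted p = 0.0549) and passed under 3 of 10 alternatives. GRAMD1C, a sterol carrier at contacts with the plasma membrane, was on the other side (0.38, limma adjusted p = 0.118).

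Efflux and lipoprotein genes outside the set (10 of 10 measured, none called) included the lipoprotein receptor LRP1 (0.34, limma adjusted p = 0.137), the transporter ABCA5 (-0.37, limma adjusted p = 0.182) and the transporter ABCA2 (0.22, limma adjusted p = 0.279). ABCA2 was at 5.90, 5.97 and 5.90 with X5050, against 5.70, 5.72 and 5.69 with DMSO, which put its groups apart by a small step.

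Oxysterol genes decide how much LXR ligand a cell holds, and 7 of 8 were measured with none called. The smallest p belonged to CYP39A1, an oxysterol hydroxylase (0.20, limma adjusted p = 0.496), CH25H, which makes 25-hydroxycholesterol (-0.11, limma adjusted p = 0.664), and SULT2B1, which sulfates oxysterols (0.11, limma adjusted p = 0.714). CYP39A1 gave a dim signal, at 3.67 to 4.21. Like CYP27A1 and CYP11A1, it lay below the median of every array, so changes of these genes may have been compressed. CH25H differed far more between cultures than between treatments, at 6.59, 5.01 and 5.36 with X5050 and 6.58, 5.26 and 5.47 with DMSO.

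Storage genes (5 of 6 measured, none called) were led by the cholesterol ester hydrolase NCEH1 (0.27, limma adjusted p = 0.373), the lysosomal acid lipase LIPA (-0.20, limma adjusted p = 0.605) and the esterifying enzyme SOAT1 (0.15, limma adjusted p = 0.637). The LXR partners and cofactors (7 of 10 measured, none called) were led by the coactivator NCOA1 (0.16, limma adjusted p = 0.518), the corepressor subunit TBL1X (0.10, limma adjusted p = 0.681) and the partner receptor RXRA (0.079, limma adjusted p = 0.766).

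The pattern of ABCA1 over the 6 arrays was most like those of PARP14, an ADP-ribosyltransferase (Pearson r = 0.996), WFDC10A (0.995) and ATXN1, a transcriptional cofactor (0.989). WFDC10A gave a dim signal, at 3.97 to 4.28, below the median of every array. These are descriptions over 6 arrays that share cultures and treatments. The search skipped symbols that begin with LOC, LINC, MIR, SNOR, FLJ, KIAA or FAM, and open reading frame names. With so few arrays r exceeded 0.9 for 147 of the probe sets left. The adjusted p of the 3 genes was 0.198, 0.514 and 0.115 in limma.

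Marker genes were read to check the labelled cell type. SOX2, PAX6, FABP7 and VIM, listed markers of neural stem cells, were bright on all arrays. Others were dimmer, with SOX1 at 6.35 to 6.61, HES1 at 6.36 to 6.76 and HES5 at 6.665 to 7.43. Of the 12 listed markers, 4 were above 0 in mean change and 8 below. LIX1 was the 1 that fell at an adjusted p under 0.05. NES was lower with X5050 in each culture without passing (-0.42, limma adjusted p = 0.113). The 12 summed to 13479 to 13853 linear signal units with X5050 and 13909 to 14594 with DMSO, sums to which bright genes add most. Neuronal markers such as STMN2 and DCX were bright as well, while RBFOX3 (5.83 to 6.09) and ELAVL4 (6.10 to 7.19) were dimmer. The 9 neuronal markers measured of 10 (TUBB3 was not) summed to 11235 to 12436 with X5050 and 10894 to 12488 with DMSO. Of these 9, 3 were above 0 in mean change and 6 below. The 8 astrocyte markers summed to 2540 to 4344 with X5050 and 3273 to 4991 with DMSO. GJA1, a bright one, was the 1 that fell. Of the 8, 5 were above 0 in mean change and 3 below, with a median of 0.029. GFAP (5.71 to 6.17) and AQP4 (4.29 to 5.01) were dim. Oligodendrocyte lineage markers (7 of 8) summed to 279 to 299 with X5050 and 254 to 313 with DMSO. Pluripotency markers (4 of 7, with POU5F1, NANOG and TDGF1 not measured) summed to 417 to 457 with X5050 and 484 to 566 with DMSO. Among them DPPA4 and DNMT3B were lower without passing (-0.32 each, limma adjusted p = 0.264 and 0.160), while LIN28A (0.0032) and ZFP42 (0.0056) stood near 0. Macrophages and microglia, where LXR targets are best known, were represented by 10 of 10 markers at log2 signals from 2.98 (PTPRC) to 6.10 (TYROBP), summing to 242 to 266 with X5050 and 237 to 263 with DMSO. The arrays give no zero and no detection call, so no marker could be called absent.

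The 12 mesenchymal markers, all measured, summed to less with X5050, with 10 of them below 0 in mean and 2 above. They summed to 6494, 2711 and 2428 with X5050 and to 10080, 3593 and 2510 with DMSO, with the X5050 array lower in each culture, and 1 of the 12, LUM, fell at an adjusted p under 0.05. THY1, a surface glycoprotein, went the other way, higher with X5050 in each culture (0.32, limma adjusted p = 0.195), and TWIST1 stood at 0.028. The part of these markers in the values of ABCA1, SMPDL3A and the other members was not tested. Without culture 1, which had the highest mesenchymal sums, ABCA1 stood at 0.24 (limma adjusted p = 0.368) and SMPDL3A at 0.31 (0.248). In bulk RNA of this kind, fewer cells of a type and less RNA per cell cannot be told apart.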

How the data were processed

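Total RNA from 3 X5050 and 3 DMSO samples (100 ng each) was labelled for Affymetrix whole-transcript arrays, per the labels' protocols, with 1 array a sample. The table deposited by the authors holds a log2 signal for each probe set. RMA and Partek are named in the submitters' processing notes. Neither their versions and settings nor the build behind the annotation is given in the sources used here. Array medians were 5.68 to 5.75, and arrays correlated at 0.984 to 0.993.

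Of 33297 probe sets, 19460 had 1 gene symbol in the platform annotation and were tested. The contrast of X5050 with DMSO was fitted in limma 3.58.1 (R 4.3.3, lmFit and eBayes, two-sided) with the replicate number as a block and Benjamini-Hochberg adjustment over all 19460, threshold 0.05. The block follows the design text, which gives 3 independent cultures. The numbers were taken as pairs on that ground, not from the correlations that follow. After subtraction of group means, arrays with the same number correlated at 0.365, 0.298 and 0.255 and arrays with different numbers at -0.236 to -0.052. Subtracting a mean of 3 arrays pushes the latter below 0 when the former are above it. The latter therefore add no separate evidence for the pairing. Intervals are 95% from the fit. The number of arrays limits their precision.

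Members and lists were chosen with earlier results of these data known. Named were all members, the genes of each list past the threshold and its 3 with the smallest p. The fit was checked on simulated data with the same noise for every gene. Calls were required there only of planted changes larger than any of the members showed. The check therefore does not measure the power for changes as small as theirs. Plots used Python 3.11.15 and matplotlib 3.10.9. Alternatives are listed in the closing section.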

Additional observations from a re-analysis of the deposited data

How the results depend on the processing

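Under 10 alternatives (no culture block, each culture left out, other centring or normalization, dim probe sets removed, other handling of a gene's probe sets, another variance prior) 0 members were called in either direction in limma, with a smallest adjusted p of 0.131 (ABCA1, after repeated quantile normalization) and of 0.552 without the block. Gene by gene, direction and call were kept in 88 of the comparisons with an alternative and the direction turned in 1, PLTP without culture 3 (PLTP ranged from -0.20 to 0.12 with 1 culture left out). ABCG1 had no value without dim probe sets. The members' median was 0.0012 to 0.12 with 1 culture left out and 0.027 without dim probe sets. The cause of these differences was not tested.

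Without a replicate block limma called 0 probe sets higher and 0 lower in all, and 9.37% had an unadjusted p under 0.05. With 1 culture left out the counts were 0 to 113 higher and 0 to 233 lower, the 0 in both directions without culture 3, against 37 and 60 with all cultures. They were 18 and 33 after repeated quantile normalization, 66 and 72 without dim probe sets, and 118 and 147 with a trended robust prior. Among the 54 other sterol handling genes 0 to 1 were higher and 0 to 2 lower with 1 culture left out, and 0 lower without the block. There were 1 higher and 2 lower without dim probe sets, with the mean of a symbol's probe sets and with the trended robust prior: RNF145 higher, STARD4 and TMEM97 lower. Without culture 1 the genes were RNF145 higher, and STARD4 and ABCA5 lower.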
